A study of Mus musculus with 4 samples.

Results

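A set of 34 genes that mark fat cells was followed in dorsal skin of male C57B6 mice. The members were chosen by gene symbol: a list of adipocyte genes was matched to probe sets that the platform annotation gives to 1 gene alone. Of the 34 genes, 30 had such a probe set among 18193 genes on the array, and 28 were bright enough to be tested among 10916 genes. Plin1, Cfd, Adrb3 and Acsl1 had no probe set listed with them alone and were not analysed here. Aqp7 and Acvr1c lay below the intensity filter, a mean log2 intensity of 6.58 over the 4 arrays, and were not tested. The skin came from postnatal day 59 (P59, 2 arrays), a late time of adult telogen, or from postnatal day 54 (P54, 2 arrays), a middle time; telogen is the resting phase of the hair cycle. All mice had the same sex and strain, and no transgene or treatment is named. The labels give 2 biological replicates per day without saying which animals, or how many, made up a sample, so p-values measure the spread between these samples. The skin was whole, so a lower signal from fewer adipocytes and one from less RNA per adipocyte cannot be told apart.

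White adipocytes store triglyceride in a single large lipid droplet. The nuclear receptor PPARG, working with C/EBP factors, switches on the genes for taking up, storing and releasing fatty acids, and for hormones such as adiponectin and leptin. In mouse skin these cells form a layer under the dermis that is known to thicken while follicles grow and to thin while they rest. Most of the members also have a role elsewhere in skin: muscle, blood vessels and sebaceous glands take up and store lipid too.

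Values are log2 probe set intensity unless a sum is named, and differences are P59 minus P54 of the group means. The level of one probe set was not set against that of another. Sums over a list are of linear intensity, so its brightest probe sets weigh most in them. The 4 arrays had median log2 intensities between 6.02 and 6.12. P59 replicate 2 stood apart: in a principal component analysis the leading axis took 57.3% of the variance, with P59 replicate 2 at 35.4 and the other 3 arrays from -22.5 to -4.31. Each difference below is therefore given with and without that array where it matters. Defining markers were read beside the fat cell label. Those of white adipocytes are members of the list themselves, and 10916 of 18193 genes passed the filter. Their levels therefore describe the label and are no independent check of it. Adipoq, Fabp4, Lep, Pparg, Lipe, Retn and Cidec were above the filter on all 4 arrays, whereas Ucp1, which defines brown adipocytes, lay between 4.24 and 4.84, below it. Of the 9 listed brown adipocyte genes, 4 were below the filter (Ucp1, Dio2, Prdm16 and Otop1) and 5 above it (Ppargc1a, Cidea, Cox7a1, Cox8b and Elovl3), several of which muscle or sebaceous glands make too. The same limit holds for white adipocyte markers such as Pparg and Fabp4, which other skin cells also make. All 5 listed genes of mammary epithelium were below the filter, which does not bear on the fat cell label in male back skin.

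Of the 28 adipocyte genes tested, 0 passed the adjusted threshold of 0.05 in limma, as did 2 of all genes tested (0.0183%). At an unadjusted limma p under 0.05, 6 adipocyte genes were lower at P59 (Nnat, Lipe, Cidec, Tmem120a, Sncg and Gpd1), or 21.4% of those tested, where the same holds for 3.01% of all genes tested. By the same rule 1 adipocyte gene, Angptl4, was higher (3.57%), beside 3.47% of all genes. Both P59 arrays lay below both P54 arrays for 10 adipocyte genes (35.7%, beside 14.8% of all genes) and above them for 1 (3.57%, beside 18.9%). The median difference of the 28 was -0.11, with 20 lower and 8 higher, while the median of all genes tested was 0.05 with 41.6% lower. Without P59 replicate 2 the median was -0.13 with 20 lower, and the median of all genes was -0.0027 with 50.4% lower. The list was put together with earlier results of these arrays known, so these shares describe it and are no independent support for its direction.

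**Figure D1:**
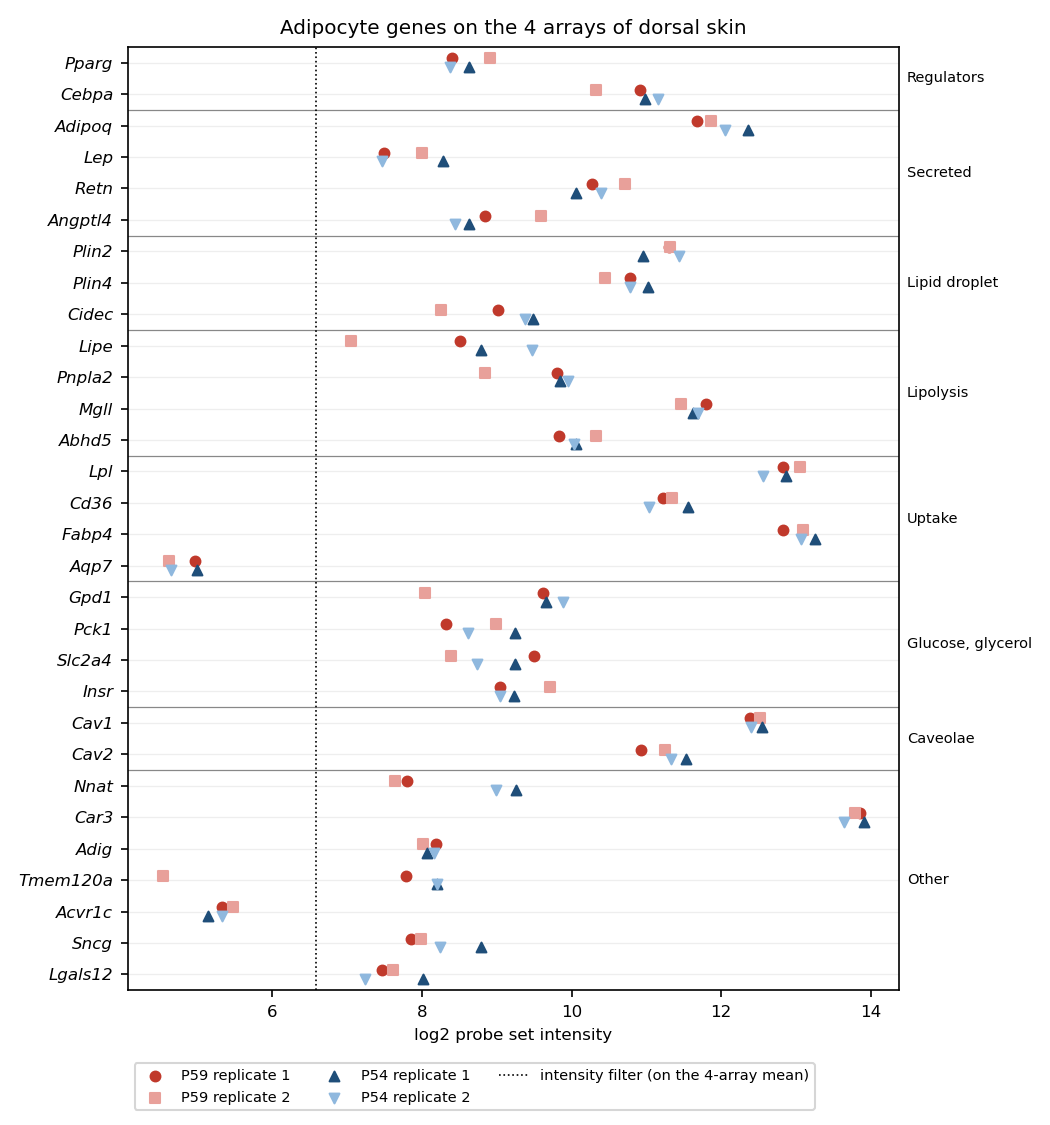
Log2 intensity (x axis) of the 30 adipocyte genes with a probe set (rows, grouped by role) on P59 replicates 1 and 2 and P54 replicates 1 and 2. Nnat shows both P59 arrays well below both P54 arrays, while Tmem120a, Lipe and Gpd1 are low mainly in P59 replicate 2; the dotted line marks the filter at 6.58, applied to the mean of the 4 arrays.

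Nnat was the adipocyte gene with the smallest p and the clearest separation. It encodes neuronatin, a small membrane proteolipid of the endoplasmic reticulum made in brain and fat, from a gene expressed from the paternal allele. Nnat had log2 intensities of 7.80 and 7.64 in P59 replicates 1 and 2, against 9.26 and 8.99 in P54 replicates 1 and 2. The groups were far apart relative to the gap inside either one, and the P59 mean was 2.66-fold below the P54 mean. The difference was -1.41 (95% interval -1.92 to -0.89, limma adjusted p = 0.106). It was -1.33 without P59 replicate 2 and -1.49 without P59 replicate 1, so neither late array alone set it. Nnat had 1 probe set, which leaves no second measurement of the gene on these arrays.

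Sncg and Adipoq had the same arrangement with smaller differences. Sncg encodes gamma-synuclein, found in adipocytes and in peripheral nerves. Its log2 intensities were 7.85 and 7.98 in the P59 arrays, against 8.78 and 8.25 in the P54 arrays, a difference of -0.60 (95% interval -1.16 to -0.04, adjusted p = 0.743). The P54 arrays differed by 0.54 between themselves, nearly as much as the groups did, and the difference was -0.33 without P54 replicate 1. Adipoq encodes adiponectin, the hormone most particular to fat cells. It was at 11.68 and 11.86 in the P59 arrays, against 12.36 and 12.05 in the P54 arrays. The groups did not overlap, and the difference of -0.44 (95% interval -0.96 to 0.09, adjusted p = 0.861) was -0.53 without P59 replicate 2 and -0.28 without P54 replicate 1. Cav2, a caveolin of the flask-shaped membrane pits that are dense in adipocytes, was at 10.92 and 11.25 at P59, against 11.53 and 11.33 at P54. Its difference was -0.34 (adjusted p = 0.913), or -0.51 without P59 replicate 2 and -0.18 without P59 replicate 1. Its partner Cav1, the main structural caveolin, was at 12.38 and 12.52 at P59, against 12.55 and 12.40 at P54, with overlapping groups and a difference of -0.02 (95% interval -0.52 to 0.48). Blood vessels carry caveolins as well. The 12 endothelial marker genes had a median difference of -0.18, with 9 lower (75.0%, beside 41.6% of all genes tested). Without P59 replicate 2 the median was -0.11 with 8 lower (66.7%, beside 50.4% of all genes tested). In units of 1000, their summed intensity was 3.61 and 3.05 in the P59 arrays and 3.93 and 3.80 in the P54 arrays. Their part in the caveolin values was not tested.

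A separate set of differences lay mostly in 1 array. Tmem120a, which encodes a nuclear envelope protein needed for mouse adipocyte differentiation, was at 7.79 in P59 replicate 1 and 4.54 in P59 replicate 2, against 8.20 and 8.20 in the P54 arrays. The 2 late arrays were 3.25 apart, more than any other tested member. Tmem120a had 1 probe set, and its value in P59 replicate 2 lay below the filter level of 6.58. The difference of -2.04 (95% interval -3.72 to -0.37, adjusted p = 0.618) was the most negative of all 10916 genes tested, and it shrank to -0.42 without P59 replicate 2. Lipe encodes hormone-sensitive lipase, which cuts diglyceride during fat release. It was at 8.51 and 7.05 in the P59 arrays, against 8.79 and 9.47 in the P54 arrays. The groups did not overlap, though P59 replicate 1 was only a little under the lower P54 array. The difference of -1.35 (95% interval -2.29 to -0.42, adjusted p = 0.511) became -0.62 without P59 replicate 2. Gpd1 makes the glycerol phosphate on which triglyceride is built. It was at 9.62 and 8.04 at P59, against 9.65 and 9.89 at P54, so that its difference of -0.94 (adjusted p = 0.764) was -0.15 without P59 replicate 2. Cidec, a droplet protein that fuses small droplets into large ones, was at 9.01 and 8.25 at P59, against 9.49 and 9.37 at P54. Its difference of -0.80 (95% interval -1.42 to -0.18, adjusted p = 0.599) was -0.42 without that array, with P59 replicate 1 still the lower one.

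**Figure D2:**
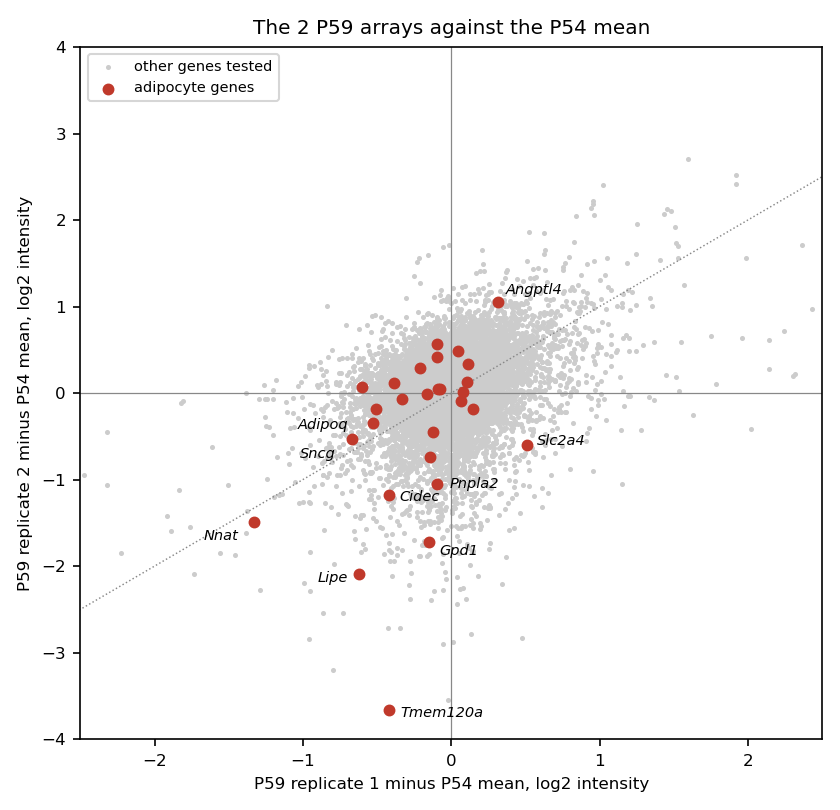
Each tested gene in P59 replicate 1 (x axis) and P59 replicate 2 (y axis), both as log2 intensity minus the mean of the 2 P54 arrays; red points are the 28 adipocyte genes, grey points the other genes, 13 of which lie outside the axes, and the dotted line marks equal values. Nnat lies near that line at -1.33 and -1.49, while Tmem120a, Lipe, Gpd1 and Pnpla2 are far below it.

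P59 replicate 2 was at least 1 log2 unit below P59 replicate 1 for 4 of the 28 adipocyte genes (14.3%, beside 3.38% of all genes tested): Tmem120a, Gpd1, Lipe and Slc2a4. For 16 adipocyte genes it was above P59 replicate 1, and for 12 below. P59 replicate 1, taken alone, lay below both P54 arrays for 15 adipocyte genes (53.6%, beside 36.0% of all genes). Other probe sets of the same genes held further low values in that array. Among 43 member probe sets above the filter, 8 from 6 genes were at least 1 unit lower in P59 replicate 2 than in P59 replicate 1, and 0 were at least 1 unit higher. The share over all probe sets was not computed, and sets of 1 gene are not independent, so these counts only describe the members. The second set of Slc2a4 was at 9.27 and 5.57 in the P59 arrays, against 8.86 and 8.59 in the P54 arrays. One further set of Mgll was at 11.03 and 8.88 at P59, against 10.43 and 11.05 at P54, while the set used for that gene differed by 0.33 between the P59 arrays. The low value of Mgll thus belonged to 1 of its sets, whereas both sets of Gpd1 above the filter were low in P59 replicate 2. Of 9 adipocyte genes with at least 2 sets above the filter, 4 had sets that differed in the sign of the P59 minus P54 difference.

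Pparg encodes the nuclear receptor that drives adipocyte identity, and sebaceous glands make it too. It was at 8.41 and 8.91 in the P59 arrays, against 8.63 and 8.38 in the P54 arrays. The groups overlapped, and the difference of 0.16 (95% interval -0.41 to 0.72, adjusted p = 0.971) was -0.096 without P59 replicate 2. Cebpa, its partner factor, was at 10.92 and 10.33 at P59, against 10.98 and 11.15 at P54. The groups did not overlap, though P59 replicate 1 was close to the lower P54 array, and the difference of -0.44 (adjusted p = 0.872) was -0.15 without P59 replicate 2.

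Among secreted products, Lep, the gene of the satiety hormone leptin, was at 7.49 and 7.995 in the P59 arrays, against 8.28 and 7.47 in the P54 arrays. Each P59 array lay within the range of the P54 arrays, and the difference was -0.14 (95% interval -0.82 to 0.55). Retn, the resistin gene, was at 10.27 and 10.72 at P59, against 10.07 and 10.39 at P54, again with overlap. Its difference of 0.27 (limma adjusted p = 0.946) was 0.04 without P59 replicate 2. Angptl4 stood out as the adipocyte gene that was higher in both late arrays. It encodes a fasting-induced inhibitor of lipoprotein lipase, and was at 8.85 and 9.59 at P59, against 8.62 and 8.44 at P54. The difference of 0.68 (95% interval 0.07 to 1.30, adjusted p = 0.723), a 1.61-fold higher mean, was 0.31 without P59 replicate 2.

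The other droplet genes had overlapping groups. Plin2, a perilipin found on droplets of many cell types, differed by 0.11, and Plin4, a perilipin of small nascent droplets, by -0.29. Both had a limma adjusted p above 0.9. Without P59 replicate 2 the difference was 0.11 for Plin2 and -0.12 for Plin4. In lipolysis, Pnpla2, the lipase that takes the first fatty acid from triglyceride, was at 9.80 and 8.85 in the P59 arrays, against 9.84 and 9.95 in the P54 arrays. P59 replicate 1 was close to both P54 arrays, and the difference of -0.57 (adjusted p = 0.852) was -0.097 without P59 replicate 2. Abhd5, the coactivator of that lipase, differed by 0.04 and Mgll, which finishes the breakdown at monoglyceride, by -0.02. Lipe and Pnpla2 were thus low in the same array as Gpd1, while Abhd5 was at its highest there, at 10.33.

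All 3 tested genes of fatty acid uptake had overlapping groups. Lpl, the lipase that frees fatty acids from lipoproteins, was at 12.83 and 13.05 in the P59 arrays, against 12.87 and 12.56 in the P54 arrays. Fabp4, the abundant fatty acid carrier of fat cells and capillaries, was at 12.83 and 13.09 at P59, against 13.26 and 13.07 at P54. The difference of this set was -0.20 (95% interval -0.72 to 0.31). Other Fabp4 sets above the filter differed by -0.06, 0.32 and -0.88. The fatty acid transporter gene Cd36 differed by -0.02 (95% interval -0.57 to 0.54). Aqp7, the glycerol channel, lay between 4.62 and 4.99 on all 4 arrays, below the filter. These intervals still allow changes of about 1.5-fold in either direction for Cd36.

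Of the genes of glucose and glycerol handling other than Gpd1, all 3 had overlapping groups. Slc2a4 encodes the insulin-responsive glucose transporter, which muscle makes too. It was at 9.50 and 8.39 in the P59 arrays, against 9.25 and 8.73 in the P54 arrays, so replicate 2 was the lower one on both days. The difference was -0.05 with all arrays and 0.51 without P59 replicate 2. The 14 muscle markers, all above the filter, had a summed intensity, in units of 1000, of 198 and 146 in the P59 arrays and 191 and 152 in the P54 arrays, the same order of arrays as Slc2a4. Their median difference was -0.0076, but 0.22 without P59 replicate 2 and -0.12 without P59 replicate 1. Their part in the Slc2a4 values was not tested. Pck1, which starts the making of glycerol from small precursors in fat, differed by -0.27 (-0.60 without P59 replicate 2), and the insulin receptor gene Insr by 0.24 (-0.093 without it).

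Of the remaining members, Car3 (carbonic anhydrase of fat and muscle), Adig (adipogenin, a small protein of forming droplets) and Lgals12 (a droplet galectin) had overlapping groups and differences of 0.05, -0.01 and -0.09. The 95% interval for Adig was -0.51 to 0.49. Car3 had 4 probe sets above the filter, and the sets not used differed by -0.45, 0.78 and 0.81. The brightest set of Car3, the one used, was at 13.85 and 13.79 in the P59 arrays, against 13.91 and 13.64 in the P54 arrays. Acvr1c, a receptor for activin-type ligands in fat, lay between 5.13 and 5.47, below the filter. Intervals of 21 of the 28 genes included 0, with a width of at least 0.50 on each side, so smaller differences could not be resolved with 2 arrays a day.

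**Figure D3:**
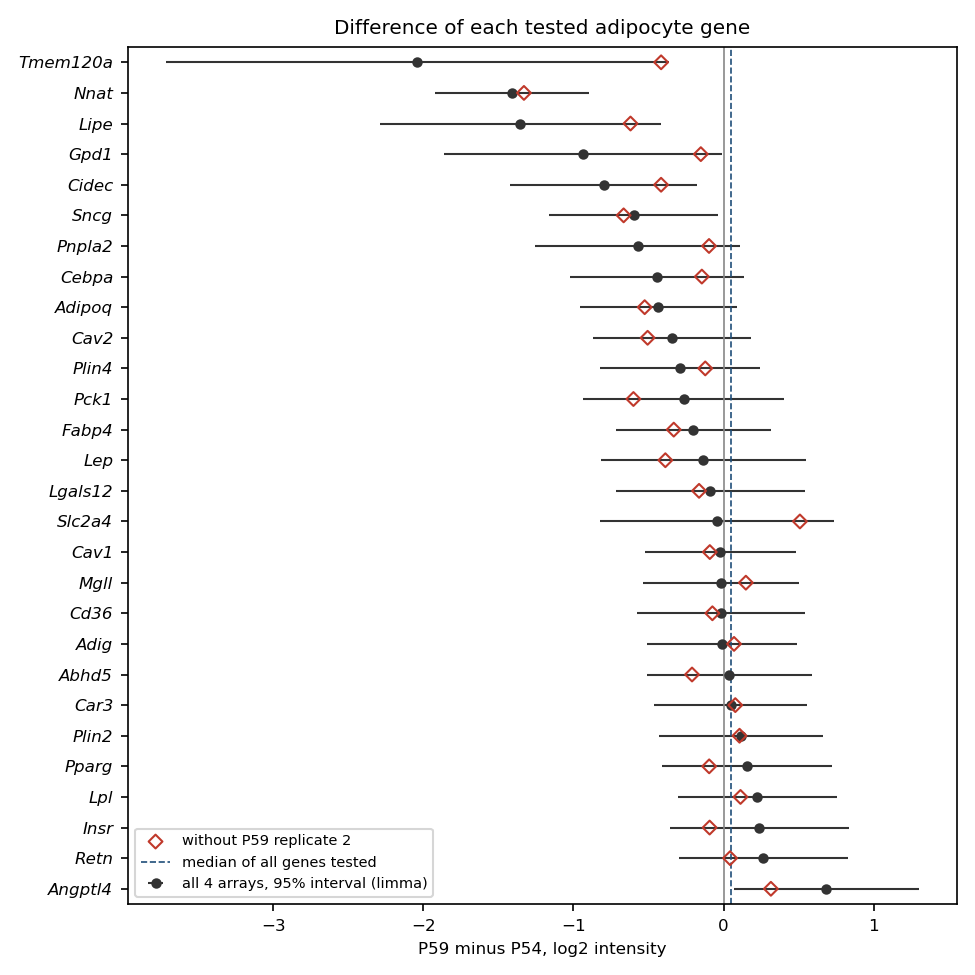
P59 minus P54 difference of log2 intensity (x axis) for the 28 tested adipocyte genes (rows), as filled points with limma's 95% interval and, as open diamonds, without P59 replicate 2; the dashed line is the median of all genes tested, 0.05. The diamonds of Tmem120a, Lipe, Gpd1, Cidec and Pnpla2 sit closer to 0 than their points, while those of Nnat (-1.33) and Sncg (-0.67) stay close to theirs.

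Upstream sequence is shown for 4 of these genes, taken from RefSeq on GRCm38.p6: Nnat, whose signal differed most steadily between the days, and Lep, Cidec and Pparg, 3 of the 5 members that hold an 8-letter match to the C/EBP type motif TTGCNNAA within 250 bases before an annotated start. The motif was searched on both strands. Of 34 listed starts of 25 member genes, 5 held a match (14.7%), those of Cav2, Cidec, Lep, Plin1 and Pparg, beside 9.56% of all 32851 starts. Further motifs were searched in the same way. AGGTCA was found before 23.5% of member starts, beside 14.0% of all starts, and CCAAT before 26.5%, beside 33.8%. A match is a description of letters and was not tested for binding. Capitals mark the match to TTGCNNAA on either strand, and the last base of each line lies just before the start.
Nnat (chr2:157559828-157560077, + strand, no match): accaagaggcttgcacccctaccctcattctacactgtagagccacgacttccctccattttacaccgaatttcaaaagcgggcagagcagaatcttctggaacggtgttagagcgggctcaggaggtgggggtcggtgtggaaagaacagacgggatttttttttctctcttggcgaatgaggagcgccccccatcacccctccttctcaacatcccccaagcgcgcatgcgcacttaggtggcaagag
Lep (chr6:29059971-29060220, + strand): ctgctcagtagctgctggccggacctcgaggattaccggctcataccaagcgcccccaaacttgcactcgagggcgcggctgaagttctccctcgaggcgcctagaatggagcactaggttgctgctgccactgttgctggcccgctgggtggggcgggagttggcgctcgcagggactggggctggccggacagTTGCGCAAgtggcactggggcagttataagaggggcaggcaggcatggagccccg
Cidec (chr6:113434765-113435014, - strand, the second of 2 starts): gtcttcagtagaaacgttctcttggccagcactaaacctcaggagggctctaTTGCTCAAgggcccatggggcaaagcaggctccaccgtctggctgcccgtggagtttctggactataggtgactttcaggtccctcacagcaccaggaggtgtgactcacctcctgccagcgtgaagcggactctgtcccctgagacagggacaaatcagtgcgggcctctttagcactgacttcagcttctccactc
Pparg (chr6:115421816-115422065, + strand, the most downstream of 3 starts): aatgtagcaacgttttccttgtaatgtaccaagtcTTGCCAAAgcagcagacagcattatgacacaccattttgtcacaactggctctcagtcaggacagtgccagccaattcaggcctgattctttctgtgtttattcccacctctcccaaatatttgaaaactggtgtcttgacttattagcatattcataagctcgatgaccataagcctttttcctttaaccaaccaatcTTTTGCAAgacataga
The match of Lep begins 55 bases before the start, that of Cidec 198 bases, and those of Pparg 215 and 16 bases. The 3 were shown as a hormone, a droplet protein and a regulator, chosen after their values were seen. Of the 4 tested members with a TTGCNNAA match, Cidec and Cav2 were lower in both P59 arrays, and Lep and Pparg had overlapping groups. The groups did not overlap, with P59 lower, for 35.7% of tested members and 14.8% of all genes. A link between the match and the difference was not tested, and 4 genes are too few to show one.

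Other genes of the adipocyte programme that are not on the list were read from 7 lists. Of 70 tested, 0 passed the adjusted threshold in limma. At an unadjusted p under 0.05, 3 were lower at P59 and 1 higher (beside 3.01% and 3.47% of all genes tested), and the groups did not overlap for 16 lower and 7 higher genes (beside 14.8% and 18.9%). Their median difference was -0.08, with 39 lower (55.7%, beside 41.6% of all genes tested), and it was -0.04 without P59 replicate 2. G0s2, an inhibitor of the lipase encoded by Pnpla2, was at 7.31 and 7.45 in the P59 arrays, against 8.14 and 7.94 in the P54 arrays. Both late arrays were low here, with a difference of -0.66 (95% interval -1.16 to -0.15, adjusted p = 0.599) that was -0.73 without P59 replicate 2. Trarg1, whose protein travels with the glucose transporter encoded by Slc2a4, was at 7.12 and 7.34 at P59, against 7.96 and 7.68 at P54 (-0.60, adjusted p = 0.698). Ppargc1b, a coactivator of nuclear receptors, differed by -0.57 (adjusted p = 0.723), again with both late arrays below both earlier ones. In triglyceride assembly, Agpat2 differed by -0.48 and Dgat2 by -0.37, each without overlap, whereas Dgat1 differed by -0.70 with all arrays and by 0.12 without P59 replicate 2. The 12 genes of fatty acid synthesis had a median of -0.05 and 0 members at an unadjusted limma p under 0.05, with Thrsp at -0.32, Fasn at -0.25 and Acacb at 0.22. Nampt, a secreted enzyme of NAD synthesis, was the higher gene (0.66, adjusted p = 0.764, and 0.32 without P59 replicate 2). Medians by list were -0.26 for 9 genes of triglyceride assembly, -0.19 for 8 of lipolysis control, -0.27 for 8 of insulin signalling, -0.22 for 13 adipogenic factors, 0.05 for 14 adipokines and receptors and 0.08 for 6 cavins and related caveolar genes. Without P59 replicate 2 they were -0.06, -0.18, -0.08, -0.06, -0.04 and 0.25 in the same order. Without P59 replicate 1 they were -0.33, -0.098, -0.015, -0.016, 0.14 and -0.18. Most of these medians thus moved with either late array, and differences between the lists were not tested. Cebpd, an early C/EBP factor of adipogenesis, differed by -0.68 (-1.30 without P59 replicate 2 and -0.064 without P59 replicate 1), and Irs1, the adaptor below the insulin receptor, by -0.41.

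Among genes listed for adipocyte precursors, of 8 tested, 6 were higher and 2 lower at P59 (41.6% of all genes were lower). At an unadjusted limma p under 0.05, 3 were higher (beside 3.47% of all genes), and 0 passed the adjusted threshold, with a median difference of 0.26 (0.13 without P59 replicate 2). Ccn5, a secreted matricellular protein of mesenchymal cells, was at 8.43 and 8.11 in the P59 arrays, against 6.91 and 6.82 in the P54 arrays. The groups were well apart, with a difference of 1.41 (95% interval 0.89 to 1.93, adjusted p = 0.106) that was 1.57 without P59 replicate 2. Dpp4, a surface peptidase that marks precursor cells of fascia and fat, differed by 0.70 (adjusted p = 0.619, and 0.41 without P59 replicate 2) and Pdgfra, a growth factor receptor of fibroblasts and precursors, by 0.64 (adjusted p = 0.648, and 0.42 without P59 replicate 2). Pdgfra stands on the fibroblast list too, whose 10 tested genes had a median of 0.10. Dlk1, an inhibitor of adipogenesis made by precursors, was below the filter.

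Markers of other skin cells were read beside these values. Summed intensity of the 28 adipocyte genes, in units of 1000 as for the other sums, was 60.5 and 62.3 in the P59 arrays and 68.9 and 61.3 in the P54 arrays, so the groups overlapped. Sebocyte markers, from cells that share Pparg and Plin2 with fat, had a median of 0.06 over 8 genes and summed to 24.3 and 26.0 at P59 and 21.5 and 24.3 at P54. Macrophage markers, which differed by a median of 0.48 over 12 genes, summed to 16.6 and 18.8 at P59 and 14.2 and 12.8 at P54. Keratinocyte markers had a median of -0.30, all 9 tested lower (beside 41.6% of all genes tested). Their sums were 73.7 and 74.2 at P59 and 86.8 and 92.5 at P54. Inner root sheath genes of the growing follicle summed to 12.7 and 3.52 at P59 and 2.09 and 2.11 at P54, with a median of 3.70 over 7 genes. That median was 4.61 without P59 replicate 2 and 2.15 without P59 replicate 1. For 6 of the 7 genes P59 replicate 2 was at least 1 log2 unit below P59 replicate 1 (beside 3.38% of all genes tested). The 5 tested brown adipocyte genes had a median of 0.30, and 2 tested blood cell genes a median of 0.18. The part of these cell types in the adipocyte values was not tested.

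**Figure D4:**
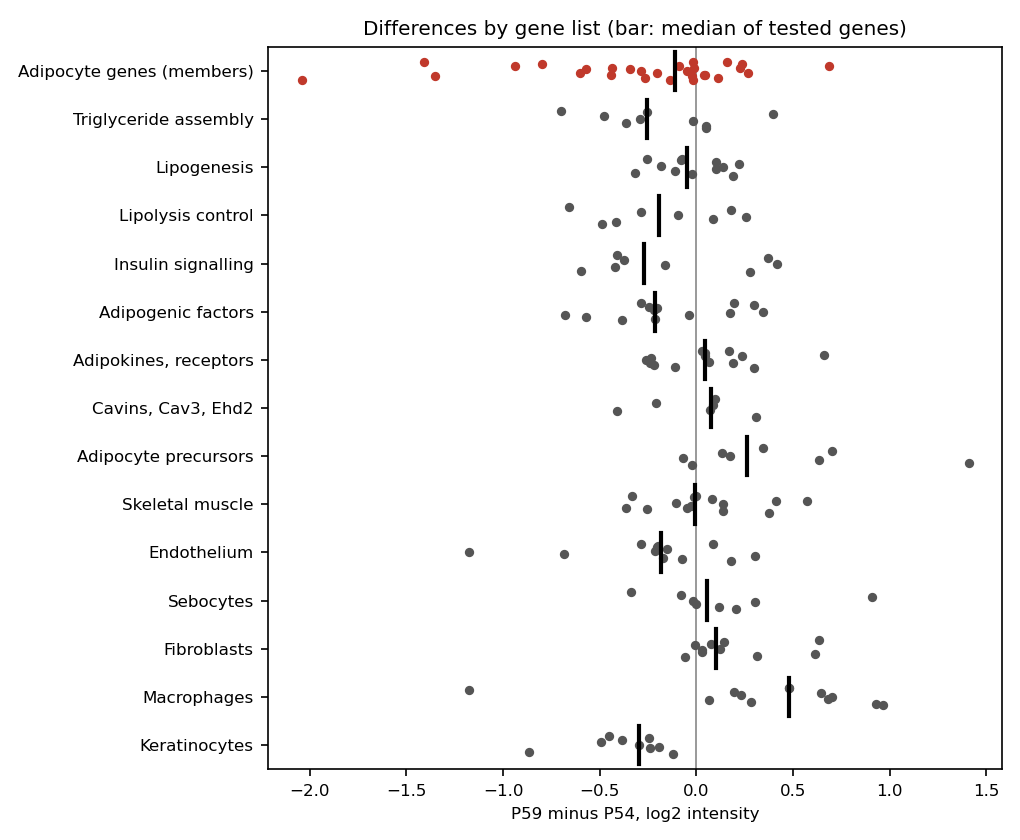
P59 minus P54 difference of log2 intensity (x axis) for each tested gene (points) of the adipocyte list, in red, and of other lists (rows); black bars are list medians and the vertical position within a row has no meaning. The adipocyte median is -0.11 with a tail down to -2.04, the precursor median 0.26, the macrophage median 0.48 and the keratinocyte median -0.30.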

How the data were processed

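For the 4 arrays the authors deposited linear intensity, 1 value per probe set; RMA and Affymetrix Expression Console are named per the submitters' processing notes, with no version or genome build given in the sources used here. Per the labels' protocols, whole shaved back skin gave Trizol-extracted RNA for biotin labelling. Log2 was taken of each intensity, with no pseudocount. Of 45101 probe sets, 34958 had 1 symbol in the platform annotation held by GEO, whose names may be dated, 932 had several and 9211 were not listed; 13 control sets with a symbol were left out. For each gene the set with the highest mean was used, and a gene was tested if its mean over arrays exceeded the 40th percentile, with limma 3.58.1 (R 4.3.3, lmFit and eBayes, 2 residual and 8.18 prior degrees of freedom), with Benjamini-Hochberg adjustment over 10916 genes. No exact permutation test of 2 against 2 arrays can reach 0.05, since only 3 splits exist. The number of arrays limits the precision. The procedure was checked on simulated data, in which each gene had independent noise of the same spread on all 4 arrays. The simulation held no array that stands apart as P59 replicate 2 does, so it does not cover that feature of the data.

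The members, gene lists, tests and alternatives were chosen with earlier results of these data known. Values on each array are given by rule for members at an unadjusted p under 0.05, for members apart by at least 0.58 without overlap and for a fixed set of marker genes, with up to 3 genes of each other list of the adipocyte programme. Values of other members were added after they were seen, as were those of the further Mgll, Slc2a4 and Fabp4 sets. The same holds for Cav2, Pnpla2, Slc2a4, Lpl, Retn, Cav1 and Car3. Replicate numbers do not pair the samples in the labels, and same-numbered arrays had deviations from their group means that correlated at -0.037.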

Additional observations from a re-analysis of the deposited data

How the results depend on the processing

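Nnat was lower at P59 under all 11 alternatives for a single gene, by 1.27 to 1.54 on the log2 scale when 1 array was left out, and its adjusted p ran from 0.000797 to 0.347. Genes past the adjusted threshold numbered 0 without the filter, with the filter at the 60th percentile, with the mean of probe sets, with each probe set on its own and after repeated quantile normalization. They numbered 49 with arrays centred on their medians and 156 with the replicate block, and from 29 to 402 with 1 array left out, when the lone array is assumed to vary like the other pair. Members past it were 1 with centred arrays (Nnat), 3 with the replicate block (Nnat, Lipe and Tmem120a) and 0 to 7 with 1 array left out; the highest counts came without P59 replicate 1. The replicate numbers do not pair the arrays, so the block rests on a shared number only. The counts of lower members that follow have no share of all genes under the same alternative beside them. They describe the list only. With each probe set on its own, the counts are of member probe sets, some from the same gene, and not of genes. That alternative gave the count of 13 lower without overlap. Among alternatives that kept all 4 arrays and counted genes, the highest such count was 12, with the mean of probe sets. Members lower at an unadjusted p under 0.05 numbered 3 with the mean of probe sets and 2 to 7 with 1 array left out, the lowest without P59 replicate 2; members lower without overlap numbered 11 to 18 with 1 array left out, where separation is easier, and 8 to 13 under the other alternatives that gave a count. The median difference was -0.067 without the filter, -0.047 with the stricter filter, -0.16 with the mean of probe sets, -0.065 with centred arrays and -0.33 to -0.058 with 1 array left out. Signs turned with centred arrays for Mgll (0.027), Cd36 (0.030), Cav1 (0.024) and Adig (0.034), after quantile normalization for Adig (0.0067), and with the mean of probe sets for Abhd5 (-0.090) and Cd36 (0.0087). With 1 array left out, differences ran from -0.096 to 0.41 for Pparg, -0.54 to 0.27 for Lep, -0.13 to 0.35 for Plin2, -0.19 to 0.15 for Mgll, -0.21 to 0.29 for Abhd5, -0.28 to 0.24 for Cd36, -0.60 to 0.067 for Pck1, -0.60 to 0.51 for Slc2a4, -0.093 to 0.57 for Insr, -0.097 to 0.052 for Cav1, -0.086 to 0.18 for Car3, -0.095 to 0.069 for Adig and -0.48 to 0.30 for Lgals12. Outside the list they ran from -1.53 to 0.12 for Dgat1, -0.51 to 0.0018 for Fasn, -1.03 to 0.045 for Npr3, -0.037 to 0.64 for Rarres2 and -0.47 to 0.056 for Ehd2. The cause of these shifts was not tested.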
